A study of Mus musculus with 16 samples.

Results

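The genes described here are 5 Wnt ligands (Wnt2, Wnt2b, Wnt5a, Wnt7b and Wnt11), 3 genes that canonical Wnt signalling is known to switch on (Axin2, Lef1 and Nkd1) and 2 modulators of the pathway (Sfrp1 and Dact1). They were taken by symbol from a list of names, chosen with earlier results of these data known, and are 10 of the 57180 genes counted. Counts of called genes are therefore set beside the share of all genes as description only. All 10 passed the filter on low counts, which left 17276 genes for testing. They were counted in lungs of fetal mice at E14.5 (embryonic day), in 16 libraries that form 4 groups of 4. Fetuses of the C57BL/6J (B6) or the A/J strain came from dams given BMS493 at 3.75 µg per g per day by mouth, or corn oil as control, from E9.5 to E14.5. The series design describes the fetuses as male. BMS493 is an inverse agonist of the retinoic acid receptors, the nuclear receptors through which vitamin A acts. No transgene or deletion is named for either strain, and nothing in the labels ties fetuses to dams, so p-values rest on the spread between these libraries. The libraries of a group are treated as independent. If fetuses of a group shared a dam, the p-values could be too small.

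Wnt proteins are secreted signals that bind Frizzled receptors. In the canonical branch, with Lrp5 or Lrp6 as co-receptor, they stabilise β-catenin, which joins TCF/LEF factors on target genes; Wnt5a and Wnt11 act largely through branches that do not need β-catenin. In the fetal lung Wnt2 and Wnt2b come from the mesenchyme and are needed for the lung to be specified, Wnt7b comes from the epithelium and acts on growth of the mesenchyme and on vascular smooth muscle, and Wnt5a takes part in distal branching.

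Assigned counts per library ranged from 15207539 to 24146224, and member counts from 182 (Wnt2b) to 3257 (Wnt7b). Of the summed lung markers, all 8 epithelial genes (Nkx2-1 and Sftpc among them) and all 8 mesenchymal genes (Tbx4 and Foxf1 among them) were detected in every group, while the 4 thymus markers summed to 0 to 0.393 CPM and one of them, Cd3e, had 0 counts in all 16 libraries. Of the 5 heart markers, Myh6, Tnnt2, Myl7 and Actc1 had counts in every library, and the list summed to 39.3 to 90.4 CPM; the fifth, Nppa, overlaps an opposite-strand gene and had 0 counts without strand and 35 in the stranded columns. In a principal component analysis of log2 expression, the first component (48.9% of the variance) separated the strains. B6 BMS493 replicates 2 and 3 stood apart from the other libraries: replicate 3 lay furthest on the second component (7.29%) and had the highest summed mesenchymal marker level, 10993 CPM (counts scaled to a library of 1e6) where the rest of its group held 6019 to 6510, and replicate 2 had the highest summed epithelial level, 2242 CPM against 1225 to 1623. Several results below are therefore also given without both of them. The mesenchymal sum mostly follows its collagen genes. Over the 16 libraries Col1a1 ranged over 1406 to 5613 CPM and Col3a1 over 1758 to 4482 CPM. Tbx4 ranged only over 200 to 279 CPM and Foxf1 over 119 to 215 CPM. A high mesenchymal sum need not mean more Tbx4 or Foxf1. In bulk tissue, fewer cells of a type and less RNA per cell cannot be told apart.

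RefSeq promoters (build GRCm38.p6, from 250 bases before to 50 bases after a start site) were found for 7 of the 10 members, 11 promoters in all; none was used for Wnt5a, Wnt7b and Sfrp1. Those of Wnt2b, Wnt11, Lef1 and Dact1 are printed because these 4 genes differed between the control strains. The table holds 2 start sites for Wnt11 and 4 for Lef1, of which the first is printed. They are reference sequence and not read from these lungs. Capitals mark the TCF/LEF core CTTTGAT, here in its reverse complement ATCAAAG. In order they lie at chr3:104961660-104961959 (minus strand), chr7:98834862-98835161 (plus), chr3:131110047-131110346 (plus) and chr12:71309634-71309933 (plus), each written 5′ to 3′ along the gene's strand.
Wnt2b: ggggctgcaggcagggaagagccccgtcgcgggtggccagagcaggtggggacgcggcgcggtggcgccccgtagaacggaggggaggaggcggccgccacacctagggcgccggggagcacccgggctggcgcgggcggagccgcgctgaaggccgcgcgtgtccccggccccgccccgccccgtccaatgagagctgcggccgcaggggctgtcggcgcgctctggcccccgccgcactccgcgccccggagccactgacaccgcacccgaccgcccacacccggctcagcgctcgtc
Wnt11: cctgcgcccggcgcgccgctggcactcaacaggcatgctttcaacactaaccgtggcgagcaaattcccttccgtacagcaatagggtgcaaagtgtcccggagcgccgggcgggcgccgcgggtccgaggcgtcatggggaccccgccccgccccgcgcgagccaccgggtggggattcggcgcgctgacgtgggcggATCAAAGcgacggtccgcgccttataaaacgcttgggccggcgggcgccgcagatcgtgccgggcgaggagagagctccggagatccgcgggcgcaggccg
Lef1: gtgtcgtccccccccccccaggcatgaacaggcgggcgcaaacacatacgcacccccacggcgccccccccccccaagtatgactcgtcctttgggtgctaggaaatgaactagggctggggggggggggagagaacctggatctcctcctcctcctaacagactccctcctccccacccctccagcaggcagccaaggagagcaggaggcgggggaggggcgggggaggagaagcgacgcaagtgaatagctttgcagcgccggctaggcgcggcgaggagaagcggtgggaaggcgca
Dact1: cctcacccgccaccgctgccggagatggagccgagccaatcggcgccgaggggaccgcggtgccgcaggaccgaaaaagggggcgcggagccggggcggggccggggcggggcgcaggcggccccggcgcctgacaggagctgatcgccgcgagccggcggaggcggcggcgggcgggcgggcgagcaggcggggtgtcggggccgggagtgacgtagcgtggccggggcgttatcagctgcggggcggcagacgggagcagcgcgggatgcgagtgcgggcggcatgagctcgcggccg
Both strands of the 11 promoters were searched for CTTTGAT and for AGGTCA, a core that retinoic acid receptors are known to bind. The TCF/LEF core was matched in 1 of the 11, at the first of 2 Wnt11 start sites, with its first base 51 bases upstream of the start. The core was present in 3.73% of all 32851 promoters in the table. AGGTCA was in 16.3% of all promoters and in 0 of the 11 member promoters. A match describes the letters in this window only.

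Per kilobase of exon, Wnt2 was the highest of the members and Lef1 or Wnt2b the lowest. In B6 controls mean CPM per kb fell in the order Wnt2 (40.7 ± 0.595, SD, n = 4), Wnt7b (23.0 ± 1.03), Sfrp1 (16.9 ± 1.02), Nkd1 (15.7 ± 0.637), Axin2 (14.1 ± 0.613), Wnt11 (7.70 ± 0.394), Wnt5a (7.03 ± 0.473), Wnt2b (6.96 ± 0.401), Dact1 (6.46 ± 0.750) and Lef1 (3.28 ± 0.0646). Neighbours from Wnt11 to Dact1, and Sfrp1 with Nkd1, overlapped within 1 SD. In A/J controls Wnt2 (46.9 ± 2.19 CPM per kb) was again highest, Dact1 (12.1 ± 0.980) and Wnt11 (10.7 ± 1.08) stood above Lef1 (5.13 ± 0.370) and Wnt5a (4.36 ± 0.369), and Wnt2b (2.83 ± 0.429) was lowest. These levels understate Dact1, Lef1, Axin2 and Wnt7b. Each overlaps a gene on the opposite strand, and without strand the reads they share are set aside as ambiguous; the counts used held 53.6%, 64.6%, 86.0% and 92.2% of the counts in the strand-specific columns for these 4 genes, and at least 99.6% for the other 6.

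**Figure D1:**
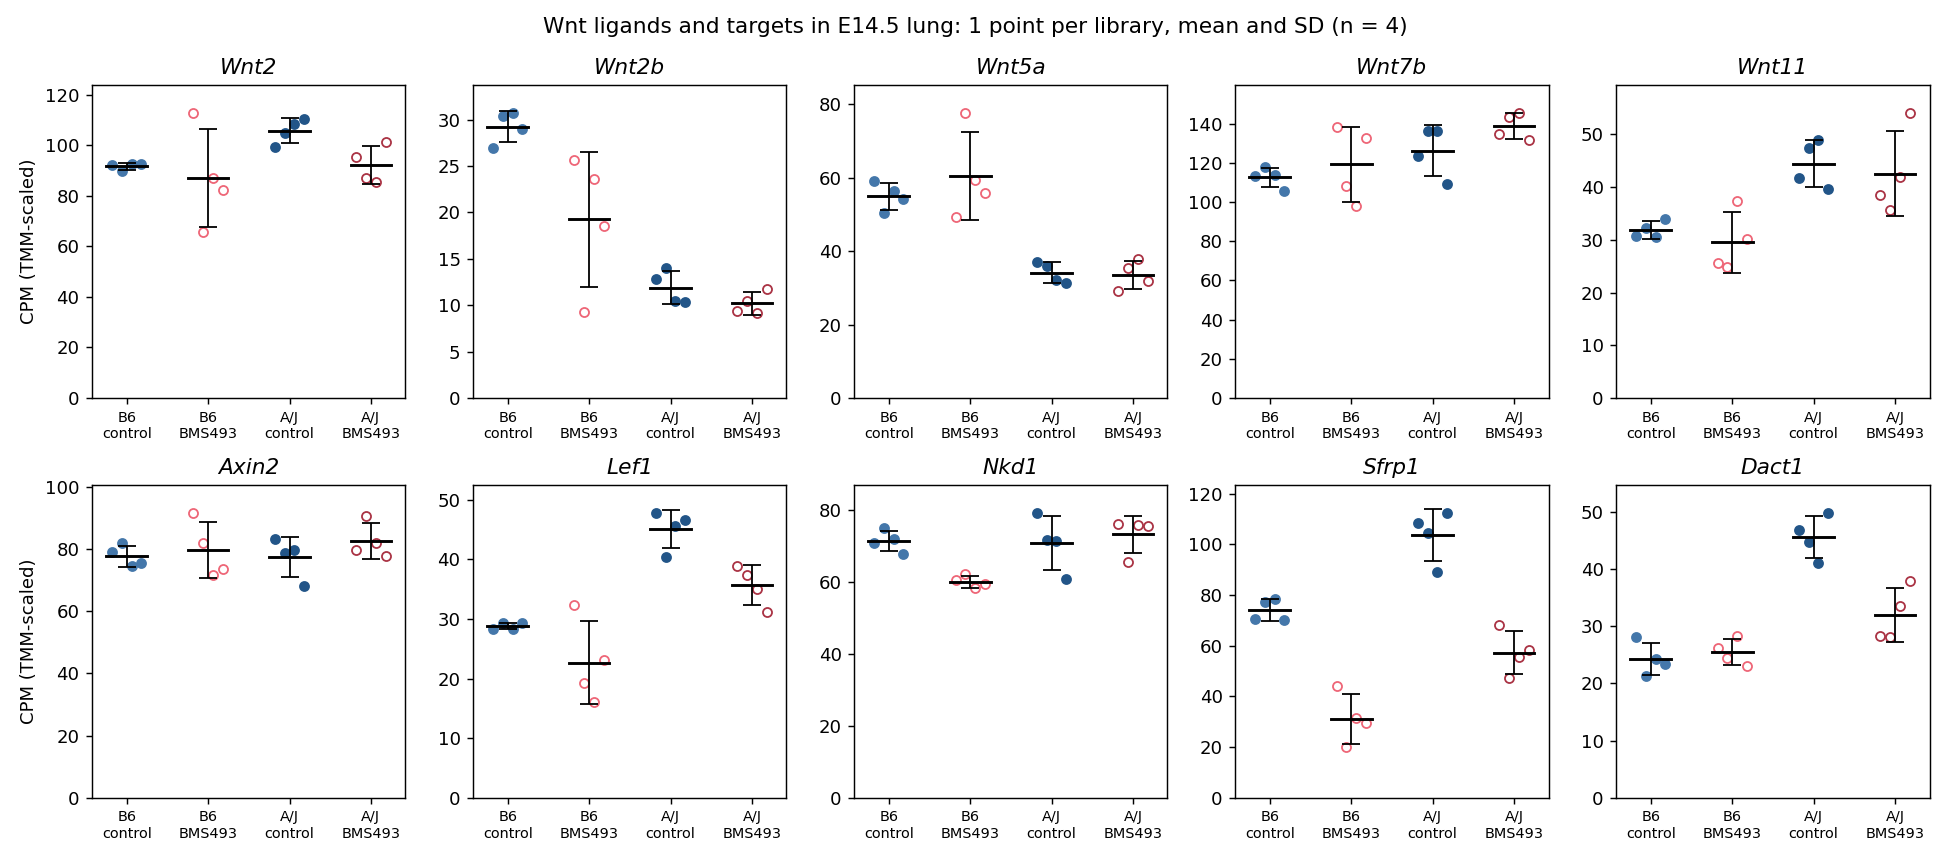
Level of each member (vertical axis, CPM after scaling of libraries) in the 4 groups (horizontal axis), with 1 point per library, a bar for the mean and whiskers for the SD (n = 4). Sfrp1 with BMS493 lies below its own controls in all 8 treated libraries, Wnt2b and Wnt5a controls lie lower in A/J than in B6, and Axin2 sits between 68.2 and 91.5 CPM throughout.

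The first question was what BMS493 did to these genes within each strain. Sfrp1, a secreted Frizzled-related protein that binds Wnt ligands outside the cell, fell in both strains. In B6 it was called together with no other member, and in A/J with Dact1, an intracellular partner of Dishevelled. The ligands and the target Axin2 did not pass the test in either strain. Tests here and below are edgeR's quasi-likelihood test over all 16 libraries, with Benjamini-Hochberg adjustment over the 17276 genes and calls made at an adjusted p under 0.05; log2 fold changes carry a standard error (SE). At that threshold 1 of 10 members was called in B6, against 0.423% of all genes (0.347% called lower and 0.0752% higher), and 2 of 10 in A/J, against 0.486% (0.423% lower and 0.0637% higher). The median log2 fold change of the 10 was -0.10 in B6 and -0.13 in A/J, where the medians of all genes were 0.0070 and -0.0019.

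Sfrp1 was measured at 70.5, 77.4, 78.4 and 70.0 CPM in the B6 controls and at 44.0, 20.1, 31.4 and 29.3 CPM with BMS493. In A/J it stood at 108, 105, 89.2 and 112 CPM in controls and at 68.3, 47.3, 55.5 and 58.3 CPM with BMS493. Treated and control libraries did not overlap in either strain. The B6 level fell by 1.25 on the log2 scale (SE 0.18, edgeR adjusted p = 0.00538), which is 2.38-fold lower. The A/J level fell by 0.85 (SE 0.17, adjusted p = 0.0389), which is 1.81-fold lower. Averaged over the strains the fall was 1.05 (SE 0.12, adjusted p = 0.000259), the only call among the 10 in that contrast, where 1.37% of all genes were called (1.09% lower and 0.278% higher). Without B6 BMS493 replicates 2 and 3 the B6 fall was 1.02 (adjusted p = 0.0189) and the average fall 0.94 (adjusted p = 0.000242). The A/J call was lost on leaving out any 1 of 12 libraries (adjusted p up to 0.148, log2 fold change -0.86 to -0.77) and held without B6 BMS493 replicate 1 or 2, A/J control replicate 3 or A/J BMS493 replicate 1. In the A/J libraries alone the adjusted p was 0.000376.

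Summed marker levels of other cell types differed in range between treated and control lungs beside these Sfrp1 values. The 6 smooth muscle markers summed to 1037 to 1106 CPM in B6 controls and 844 to 1035 CPM with BMS493, and to 834 to 1049 and 801 to 911 CPM in A/J. The 6 mesothelial markers summed to 92.5 to 98.6 CPM in B6 controls and 65.2 to 99.9 CPM with BMS493, and to 102 to 120 and 83.5 to 96.5 CPM in A/J. Over the 5 neural markers the sum was 7.08 to 8.47 and 5.61 to 7.47 CPM in B6, and 12.1 to 12.9 and 7.79 to 13.1 CPM in A/J. Averaged over the strains, 3 of 5 tested smooth muscle markers, 1 of 6 mesothelial and 1 of 5 neural markers were called lower with BMS493 (median log2 fold change -0.27, -0.10 and -0.14). In single strains the smooth muscle median was -0.30 in B6, with 1 marker called lower, and -0.22 in A/J. The sixth smooth muscle marker, Tagln, overlaps genes on the opposite strand and kept 0.361% of its stranded counts (113 of 31285), so it hardly enters the sum and was not tested. All markers of these 3 lists were detected in each group. Heart markers summed to 76.2 to 90.4 CPM in B6 controls and 39.3 to 86.1 CPM with BMS493 (median log2 fold change -0.43), and to 41.5 to 76.2 and 57.4 to 76.2 CPM in A/J (0.19). Epithelial markers summed to 1195 to 1376 CPM in B6 controls and 1225 to 2242 CPM with BMS493 (median 0.20), and to 920 to 1055 and 987 to 1168 CPM in A/J (0.064). The part of these 5 lists in the Sfrp1 result was not tested.

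Dact1 was called lower with BMS493 in A/J. Its control libraries in A/J held 46.9, 44.8, 41.0 and 49.8 CPM and the treated ones 28.2, 28.2, 33.6 and 37.9 CPM, with no overlap. The fall was 0.51 on the log2 scale (SE 0.10, edgeR adjusted p = 0.00874), or 1.43-fold. It was 0.46 without A/J BMS493 replicate 1 (adjusted p = 0.0637) and 0.46 without replicate 2 (adjusted p = 0.0595), so either of these libraries ended the call. In B6 the same gene read 28.1, 21.4, 24.3 and 23.4 CPM in controls and 26.2, 24.5, 28.3 and 23.0 CPM with BMS493; the groups overlapped and the log2 fold change was 0.07 (SE 0.10, adjusted p = 0.889). Opposite-strand overlap covered 34.9% of the annotated Dact1 exon bases; the partner, 4930474H06Rik, had 0 counts of its own in every library. With both stranded columns summed, Dact1 averaged 46.8 ± 4.06 and 46.5 ± 3.90 CPM (SD, n = 4) in B6 control and BMS493 lungs and 83.8 ± 3.59 and 60.2 ± 6.91 CPM in A/J, and its A/J fall was 0.48 (adjusted p = 0.00178). These sums may include reads of the partner, since the libraries do not mark strand.

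The difference between the strains' responses was tested as an interaction, and no member was called, where 0.00579% of all genes were. At an unadjusted p under 0.05 edgeR marked 2 of the 10 members, against 3.68% of all genes: Dact1 (log2 difference -0.58, SE 0.14, adjusted p = 0.903) and Nkd1 (0.30, SE 0.10, adjusted p = 0.999). DESeq2 called 0 members, and edgeR without the filter on low counts called 1, Dact1. For Sfrp1 the difference was 0.40 (SE 0.24, adjusted p = 0.999), and 0.16 without B6 BMS493 replicates 2 and 3 (adjusted p = 0.982). The Dact1 fall in A/J is thus not shown to differ from the B6 value at this threshold.

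Lef1, a TCF/LEF factor that is also a target of the pathway, had the same log2 fold change in both strains, and neither was called. It read 28.3, 29.3, 28.4 and 29.3 CPM in B6 controls against 32.3, 19.3, 16.1 and 23.0 CPM with BMS493, and 47.7, 40.4, 45.6 and 46.6 against 38.9, 37.4, 35.1 and 31.2 CPM in A/J. The A/J groups did not overlap, while B6 BMS493 replicate 1 lay above all B6 controls. The log2 fold change was -0.34 in B6 (SE 0.14, edgeR adjusted p = 0.463), -0.34 in A/J (SE 0.13, adjusted p = 0.599) and -0.34 on average (SE 0.10, adjusted p = 0.101). Without B6 BMS493 replicates 2 and 3 the B6 value was -0.061 and the average -0.20 (adjusted p = 0.202), and the A/J value stayed at -0.34 with an adjusted p of 0.0359. Without B6 BMS493 replicate 1 the B6 value was -0.56 (adjusted p = 0.00525) and the average -0.45 (adjusted p = 0.000238), so Lef1 was then called.

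Wnt2b and Nkd1 also separated the B6 groups without being called. Wnt2b stood at 27.0, 30.4, 30.7 and 29.0 CPM in B6 controls and at 25.6, 9.26, 23.6 and 18.5 CPM with BMS493 (log2 fold change -0.61, SE 0.21, edgeR adjusted p = 0.347), and replicate 2 was the lowest. Leaving out B6 BMS493 replicates 2 and 3 brought this to -0.41 (adjusted p = 0.286). Nkd1, an inhibitor of Dishevelled that the pathway induces, read 70.8, 74.9, 72.1 and 67.9 CPM in B6 controls and 60.5, 62.2, 58.3 and 59.4 CPM with BMS493 (-0.25, SE 0.07, adjusted p = 0.172). In A/J both genes overlapped between treatments, with log2 fold changes of -0.22 (SE 0.23) for Wnt2b and 0.05 (SE 0.07) for Nkd1. With Sfrp1, 3 of 10 members had no overlap in B6, where 4.71% of all genes had none, and in A/J 3 of 10 (Lef1, Sfrp1 and Dact1) against 4.87%.

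The other 4 ligands and Axin2 overlapped between treatments in both strains, with log2 fold changes between -0.20 (Wnt2 in A/J, SE 0.10) and 0.14 (Wnt5a in B6, SE 0.11). Their spread was wider in treated B6 lungs than in B6 controls. Wnt2 was 89.7 to 92.5 CPM in B6 controls and 113, 65.6, 87.0 and 82.4 CPM with BMS493, and Wnt5a was 50.3 to 59.1 and 49.3, 77.5, 59.3 and 55.9 CPM. Replicate 2 of this group, whose summed epithelial markers were highest, had the lowest Wnt2, Wnt2b and Sfrp1 and the highest Wnt5a of its group. Wnt7b, the epithelial ligand, was 106 to 118 CPM in B6 controls, 97.8 to 138 CPM in treated B6 lungs, 109 to 136 CPM in A/J controls and 132 to 145 CPM in treated A/J lungs. Axin2, a scaffold of the β-catenin destruction complex and a general target of canonical signalling, had log2 fold changes of 0.04 (SE 0.08, edgeR adjusted p = 0.924) in B6 and 0.09 (SE 0.08, adjusted p = 0.980) in A/J. A p above the threshold does not show that these genes were alike in both treatments; averaged over the strains, Wnt2 was -0.14 (SE 0.07, adjusted p = 0.533) and -0.21 without B6 BMS493 replicate 1 (adjusted p = 0.0349), and Wnt7b was 0.11 (SE 0.06, adjusted p = 0.560) and 0.20 without B6 BMS493 replicates 2 and 3 (adjusted p = 0.0244).

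**Figure D2:**
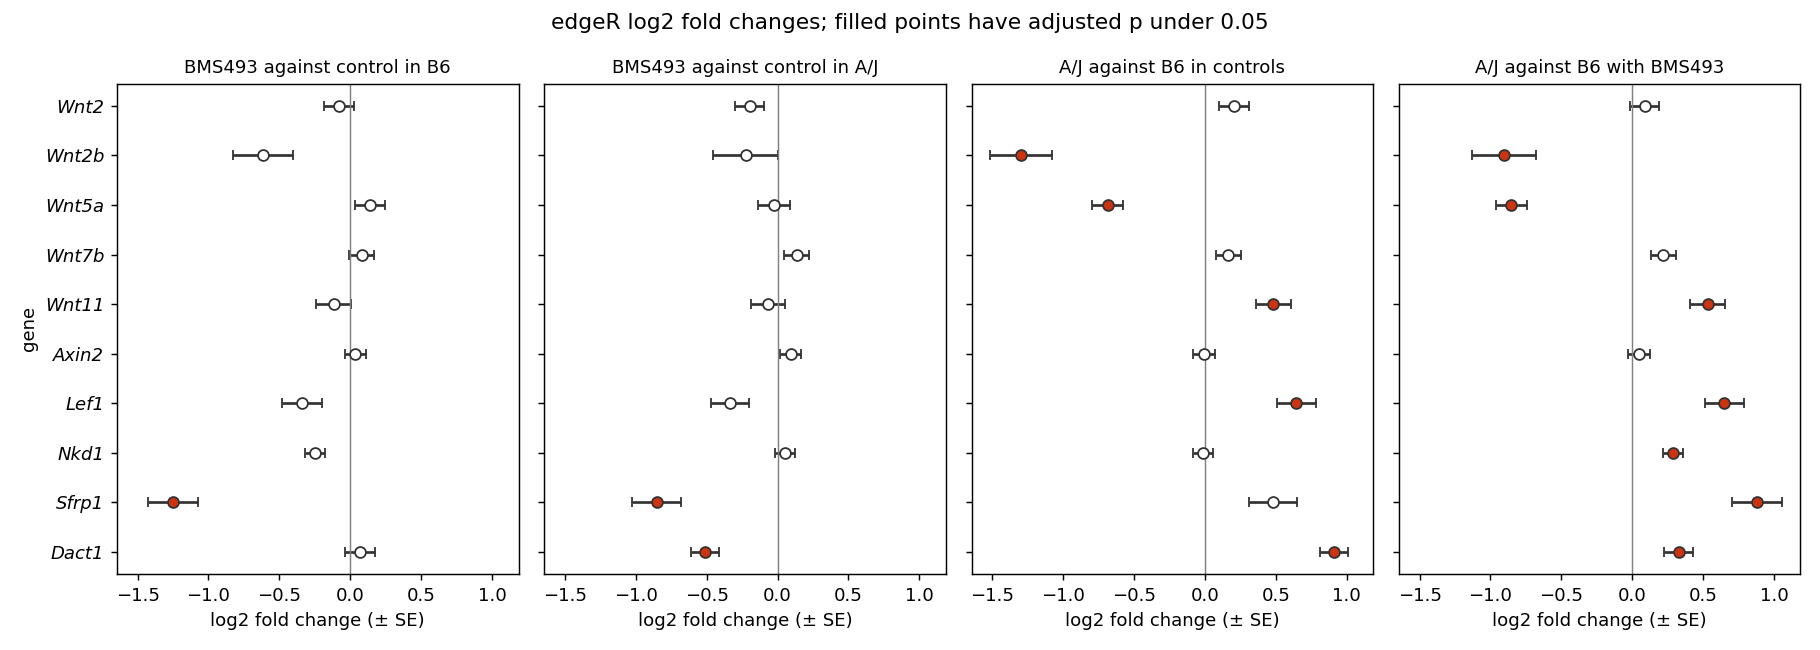
Log2 fold change of each member (horizontal axis) with its SE in 4 contrasts, 1 per panel; filled points have an edgeR adjusted p under 0.05. Sfrp1 is filled on the left of 0 in both BMS493 panels (-1.25 and -0.85), and more points are filled in the strain panels (5 and 7 of 10). Panels that use the same group share its libraries.

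The second question was how the strains differed. In controls 5 of 10 members were called, 3 higher in A/J (Dact1, Lef1 and Wnt11) and 2 lower (Wnt2b and Wnt5a), against 16.9% of all genes (7.04% higher and 9.84% lower). Under BMS493 7 of 10 were called, 5 higher (the same 3 with Sfrp1 and Nkd1) and 2 lower (Wnt2b and Wnt5a), against 20% of all genes (7.93% higher and 12% lower). The median log2 fold change of the 10 was 0.19 in controls and 0.25 with BMS493, against 0.0081 and 0.0032 over all genes. Each strain comparison shares a group with each treatment comparison, so their values are not independent. Of all fragments, 71.7% to 75.8% were assigned to genes in A/J libraries and 74.0% to 76.9% in B6 libraries. Fragments that matched several places made up 3.62% to 4.06% in A/J and 2.81% to 3.29% in B6 libraries. The part of these shares in the strain differences was not tested.

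Of the ligands, Wnt2b and Wnt5a were lower and Wnt11 higher in A/J. Wnt2b read 12.8, 13.98, 10.4 and 10.3 CPM in A/J controls and 9.37, 10.5, 9.16 and 11.8 CPM with BMS493, all below the B6 controls. The A/J level was 1.30 lower on the log2 scale in controls (log2 fold change -1.30, SE 0.22, edgeR adjusted p = 0.00052) and 0.91 lower with BMS493 (-0.91, SE 0.23, adjusted p = 0.00901), where B6 replicate 2 at 9.26 CPM lay within the A/J range. For Wnt5a the A/J libraries held 37.1, 36.1, 32.1 and 31.3 CPM in controls and 29.2, 35.4, 37.8 and 31.9 CPM with BMS493, and no A/J library reached the lowest B6 library of either treatment. Its log2 fold changes were -0.69 (SE 0.11, adjusted p = 7.42e-05) in controls and -0.85 (SE 0.11, adjusted p = 3.81e-06) with BMS493. The differences with BMS493 were -1.12 for Wnt2b (adjusted p = 2.29e-07) and -0.65 for Wnt5a (adjusted p = 7.35e-06) without B6 BMS493 replicates 2 and 3. Wnt11 read 30.8, 32.2, 30.5 and 34.03 CPM in B6 controls and 41.8, 47.4, 49.0 and 39.7 CPM in A/J controls, without overlap. With BMS493 it read 25.6, 24.9, 37.4 and 30.1 CPM in B6 and 38.5, 35.7, 41.9 and 54.0 CPM in A/J, where B6 replicate 3 lay above the lowest A/J library. The Wnt11 log2 fold changes were 0.48 (SE 0.12, adjusted p = 0.00824) and 0.53 (SE 0.12, adjusted p = 0.00364).

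Wnt2 and Wnt7b, the most abundant ligands, were not called between the strains. Wnt2 was 99.3 to 111 CPM in A/J controls, above every B6 control (log2 fold change 0.21, SE 0.10, edgeR adjusted p = 0.200), and 85.4 to 101 CPM in treated A/J lungs, within the range of treated B6 lungs (0.09, SE 0.11, adjusted p = 0.620). Wnt7b overlapped in controls (0.17, SE 0.09, adjusted p = 0.219) and with BMS493 (0.22, SE 0.09, adjusted p = 0.0841). Without B6 BMS493 replicate 1 both genes were called with BMS493, Wnt2 at 0.24 (adjusted p = 0.0313) and Wnt7b at 0.30 (adjusted p = 0.0127), and Wnt2 in controls at 0.21 (adjusted p = 0.0498); Wnt7b was also called without replicate 4 (0.27, adjusted p = 0.0412). In the 8 control libraries alone Wnt2 was called at 0.21 (adjusted p = 0.00674). Without B6 BMS493 replicates 2 and 3 it was called in controls at 0.20 (adjusted p = 0.0398), and the values with BMS493 were -0.081 for Wnt2 and 0.037 for Wnt7b (adjusted p = 0.662 and 0.841).

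Among the targets Lef1 was higher in A/J by 0.65 on the log2 scale in controls (SE 0.14, edgeR adjusted p = 0.00192) and by 0.65 with BMS493 (SE 0.14, adjusted p = 0.00195), about 1.56-fold and 1.57-fold. The control groups did not overlap, and with BMS493 B6 replicate 1 at 32.3 CPM lay above the lowest A/J library at 31.2 CPM. Without B6 BMS493 replicates 2 and 3 the difference with BMS493 was 0.36 (adjusted p = 0.0212). Nkd1 was 60.9 to 79.2 CPM in A/J controls, around the B6 control range (log2 fold change -0.01, SE 0.07, adjusted p = 0.927). With BMS493 it read 76.2, 65.6, 76.0 and 75.7 CPM in A/J, all above the 4 B6 libraries (0.29, SE 0.07, adjusted p = 0.00507). Axin2 differed little in either setting, at -0.01 (SE 0.08, adjusted p = 0.976) and 0.05 (SE 0.08, adjusted p = 0.708).

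Of the modulators, Dact1 was called higher in A/J in both treatments and Sfrp1 with BMS493. Dact1 was 1.88-fold higher in controls, without overlap (log2 fold change 0.91, SE 0.10, edgeR adjusted p = 2.06e-07), and 1.25-fold higher with BMS493, with overlap (0.33, SE 0.10, adjusted p = 0.0230). The second call was lost without B6 BMS493 replicate 2 (adjusted p = 0.0628) or 4 (0.0727), without A/J BMS493 replicate 3 (0.0688) or 4 (0.123), and in the 8 treated libraries alone (0.0620). From the summed stranded columns the Dact1 differences were 0.85 and 0.38 (adjusted p = 1.7e-08 and 0.00144), and those of Lef1 were 0.58 and 0.60 (adjusted p = 0.0198 and 0.0153). Sfrp1 was higher in A/J by 0.88 with BMS493 (SE 0.18, adjusted p = 0.00258) and lay above every B6 library in controls too, at 0.48 (SE 0.17, adjusted p = 0.0657); this was called without B6 BMS493 replicate 1 (adjusted p = 0.00629) or 2 (0.00538), without replicates 2 and 3 together (0.0132), in the 8 control libraries alone (1.37e-05), with DESeq2 (0.0437), with the replicate block (0.0485) and with a stranded column (0.0472). The Sfrp1 difference with BMS493 was 0.64 without B6 BMS493 replicates 2 and 3 (adjusted p = 0.0226). Over the 10 members, groups did not overlap for 7 in controls, where 24.3% of all genes had no overlap, and for 3 (Wnt5a, Nkd1 and Sfrp1) with BMS493, where 19.5% had none. Summed mesenchymal markers were 6903 to 7174 CPM in B6 controls and 4115 to 5369 in A/J controls, and summed epithelial markers 1195 to 1376 and 920 to 1055 CPM. Of 8 mesenchymal markers 4 were called lower in A/J controls, and 4 lower and 1 higher with BMS493 (median log2 fold change -0.18 and -0.12). Of 8 epithelial markers 2 were called lower in A/J controls and 3 with BMS493 (median -0.17 and -0.20). Endothelial markers summed to 1001 to 1110 CPM in B6 controls and 740 to 886 CPM in A/J controls, with 4 of 6 called lower in A/J controls and 6 of 6 with BMS493 (median log2 fold change -0.38 and -0.41). Neural markers were higher in A/J, at the sums given above, with 2 of 5 called higher in controls and 3 of 5 with BMS493 (median 0.57 and 1.30). The part of these lists in the strain differences of the members was not tested.

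**Figure D3:**
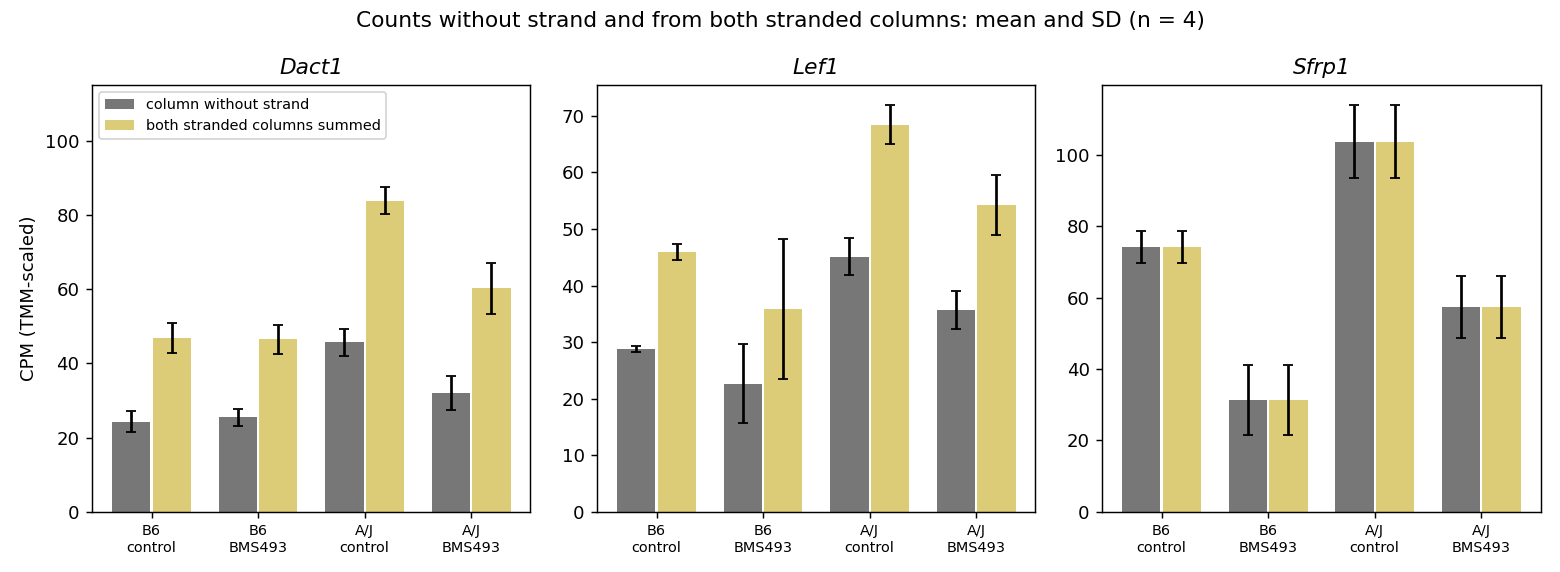
Mean level and SD (vertical axis, CPM, n = 4 libraries) of Dact1, Lef1 and Sfrp1 in the 4 groups, from the counts without strand (grey) and from both stranded columns summed (yellow). Dact1 and Lef1 rise with the second count in every group, Dact1 from 45.6 to 83.8 CPM in A/J controls, and the B6 control and BMS493 means of Dact1 change places (24.3 and 25.5 CPM, then 46.8 and 46.5 CPM). Sfrp1, which has no annotated overlap, is the same by both counts.

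The members ranged widely in how far they varied over the 16 libraries. The SD of log2 CPM was 0.71 for Sfrp1, 0.69 for Wnt2b and 0.44 for Lef1, and 0.11 for Axin2, the lowest. For the first 3, the tested genes outside the Wnt lists with the smallest root mean square difference in log2 CPM, after each gene's own mean was subtracted, were named over the same 16 libraries. For Sfrp1 they were Dcx (0.18), Chrna4 (0.24) and Asb4 (0.26). Dcx, a microtubule-binding protein of migrating neurons, averaged 40.1, 20.3, 58.7 and 28.5 CPM in B6 control, B6 BMS493, A/J control and A/J BMS493 lungs. Those nearest to Wnt2b were Fxyd7 (0.29), Zfp469 (0.30) and Epha5 (0.31), and those nearest to Lef1 were Peg10 (0.12), Slitrk6 (0.16) and Mob3b (0.17). Peg10, an imprinted gene, averaged 139 and 109 CPM in B6 and 236 and 174 CPM in A/J, in control and BMS493 lungs. These are descriptions of profiles across libraries that share strain and treatment.

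The rest of the pathway was read from 89 further genes in 9 lists by role, of which 76 were tested. Averaged over the strains, BMS493 left 5 of the 76 called (6.58%, against 1.37% of all genes), 3 lower and 2 higher, with a median log2 fold change of 0.010 against 0.0020 for all genes. Among 10 tested secreted inhibitors Sfrp2, a close relative of Sfrp1, fell by 0.37 (SE 0.07, edgeR adjusted p = 0.00824) and Notum, an enzyme that removes the lipid from Wnt proteins, rose by 0.62 (SE 0.14, adjusted p = 0.0152). Sfrp2 averaged 66.9 ± 4.38 and 56.1 ± 10.8 CPM (SD, n = 4) in B6 control and BMS493 lungs and 90.8 ± 5.27 and 64.7 ± 7.34 CPM in A/J; Notum averaged 2.79 ± 0.320, 4.33 ± 0.467, 3.72 ± 0.517 and 5.65 ± 1.54 CPM in the same order. The Notum call was lost without A/J BMS493 replicate 3 (adjusted p = 0.0511). Both share reads with an opposite-strand gene, and from the summed stranded columns they changed by -0.41 and 0.56 (adjusted p = 0.00272 and 0.00754). Among 7 other canonical targets Tnfrsf19, a receptor of the TNF family, fell by 0.27 (SE 0.05, adjusted p = 0.00128) and Bambi, a pseudoreceptor for TGF-β family signals, fell by 0.27 (SE 0.05, adjusted p = 0.00294). Of 16 receptors, Fzd1 rose by 0.18 (SE 0.05, adjusted p = 0.0492), a call lost in 17 of 25 alternative fits (adjusted p up to 0.176). The count was 10 without B6 BMS493 replicate 1 (2.10% of all genes) and 3 without A/J BMS493 replicate 3 (1.06%).

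Within single strains 1 pathway gene was called in B6, Tnfrsf19 (log2 fold change -0.29, SE 0.06, edgeR adjusted p = 0.0380), and 2 in A/J, Bambi (-0.34, SE 0.07, adjusted p = 0.0163) and Sfrp2 (-0.49, SE 0.10, adjusted p = 0.0292). That is 1.32% and 2.63% of the 76, against 0.423% and 0.486% of all genes. The Tnfrsf19 call was lost in 11 of 26 alternative fits (adjusted p up to 0.205), that of Sfrp2 in 7 (up to 0.124), and that of Bambi in 3 (up to 0.115). The A/J count fell to 0 without A/J control replicate 1, A/J BMS493 replicate 1 or A/J BMS493 replicate 3 (0.312%, 0.381% and 0.295% of all genes called). It fell to 1, Bambi, without A/J control replicate 2 or 3, A/J BMS493 replicate 2 or B6 BMS493 replicate 3. The B6 count was 0 on leaving out any 1 B6 control, A/J control replicate 2 or B6 BMS493 replicate 4, and 2 without B6 BMS493 replicate 3. For the interaction edgeR called 0 of 76, with 5 at an unadjusted p under 0.05 (6.58%, against 3.68% of all genes), and DESeq2 called 0. Of the 13 genes not tested, the ligand genes Wnt1, Wnt3a and Wnt8a had 0 counts without strand in all 16 libraries, and Sfrp4 reached 12 counts at most. In the stranded columns Wnt3a and Wnt8a had 1 count each.

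**Figure D4:**
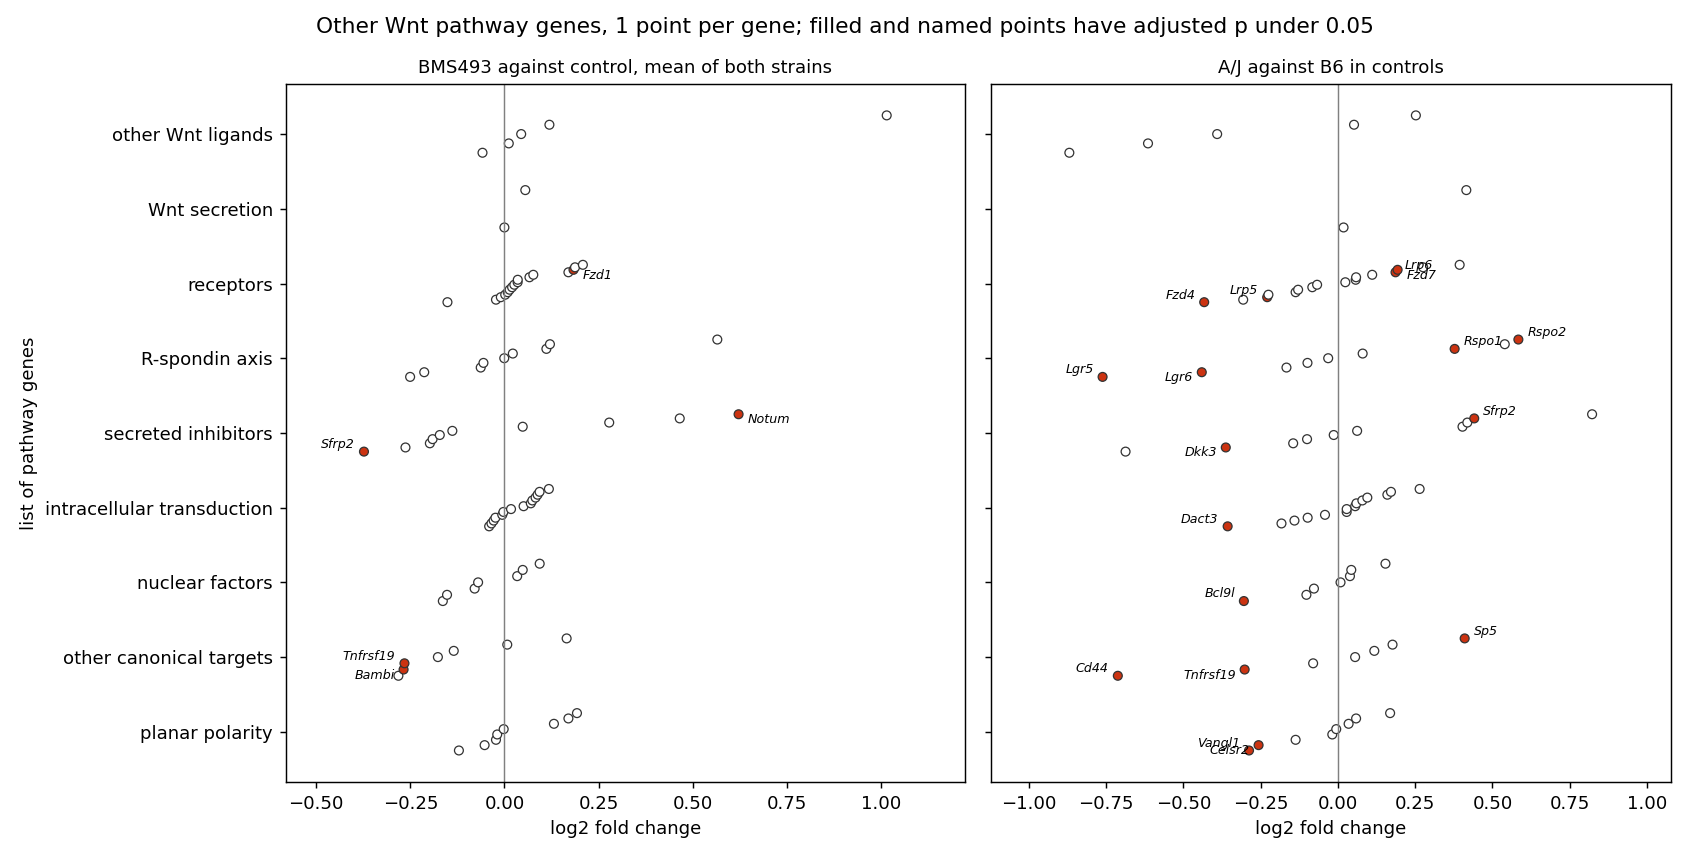
Log2 fold changes (horizontal axis) of the 76 tested pathway genes in 9 lists (vertical axis, 1 point per gene, spread within a list only to separate points), for BMS493 averaged over strains and for A/J against B6 controls. Filled points have an edgeR adjusted p under 0.05: 5 genes on the left and 17 on the right, where Lgr5 (-0.76) and Cd44 (-0.71) lie furthest left among them.

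Between control strains 17 of the 76 were called (22.4%, against 16.9% of all genes), 6 higher and 11 lower in A/J. In the receptor list Fzd4 (log2 fold change -0.43, SE 0.09, edgeR adjusted p = 0.0016) and the co-receptor gene Lrp5 (-0.23, SE 0.06, adjusted p = 0.0139) were lower, and Lrp6 (0.19, SE 0.06, adjusted p = 0.0220) and Fzd7 (0.19, SE 0.06, adjusted p = 0.0344) were higher. In the R-spondin list, whose ligands keep Wnt receptors at the cell surface, Lgr5 (-0.76, SE 0.18) and Lgr6 (-0.44, SE 0.09), both receptors for R-spondins, were lower while Rspo1 (0.38, SE 0.12) and Rspo2 (0.58, SE 0.18) were higher. Of the targets, Cd44, a receptor for hyaluronan, was lower (-0.71, SE 0.12, adjusted p = 0.000357), Tnfrsf19 was lower (-0.30, SE 0.06, adjusted p = 0.00147) and Sp5 was higher (0.41, SE 0.13, adjusted p = 0.0317). Sfrp2 was higher (0.44, SE 0.10, adjusted p = 0.00447) and Dkk3 lower (-0.36, SE 0.09, adjusted p = 0.00725). The other 4 calls were lower, Dact3 at -0.36, Bcl9l at -0.30, Vangl1 at -0.29 and Celsr2 at -0.26. Calls were lost on leaving out 1 control library for Lrp5 (without A/J control replicate 4, adjusted p = 0.0660) and under several alternatives for Fzd7, Lrp6, Rspo1, Rspo2, Sp5, Dact3, Bcl9l, Vangl1 and Celsr2 (up to 0.158). Without B6 control replicate 4 the count was 11, where 13.02% of all genes were called.

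With BMS493 16 of the 76 were called between the strains (21.1%, against 20% of all genes), 5 higher and 11 lower. Fzd4 (-0.47, SE 0.09, edgeR adjusted p = 0.000573), Lgr6 (-0.44, SE 0.09, adjusted p = 0.00122), Tnfrsf19 (-0.25, SE 0.06, adjusted p = 0.00669), Lrp5 (-0.24, SE 0.06, adjusted p = 0.00889) and Cd44 (-0.47, SE 0.12, adjusted p = 0.00997) were lower as in controls, and Rspo1 was higher as in controls (0.44, SE 0.12, adjusted p = 0.0101). Wif1, a secreted protein that binds Wnt ligands, was lower in A/J (-0.77, SE 0.24, adjusted p = 0.0259), as were Btrc (-0.22, SE 0.07, adjusted p = 0.0191), Celsr1 (-0.21, SE 0.07, adjusted p = 0.0327), Fzd6 (-0.36, SE 0.12, adjusted p = 0.0408) and the weakly expressed Wnt7a (-1.20, SE 0.40, adjusted p = 0.0330) and Rspo4 (-1.66, SE 0.58, adjusted p = 0.0459). The Dishevelled genes Dvl3 (0.34, SE 0.11) and Dvl2 (0.17, SE 0.06), Nkd2 (0.36, SE 0.12) and Fzd2 (0.17, SE 0.06) were higher, with adjusted p between 0.0311 and 0.0493. Dvl2 shares reads with an opposite-strand gene, and from the summed stranded columns it was 0.096 (adjusted p = 0.273) and not called. Calls were lost in 17 of 26 alternative fits for Fzd2 (adjusted p up to 0.158), 12 for Nkd2 (0.311), 11 for Fzd6 (0.737), 10 for Dvl2 (0.273), 7 for Wnt7a (0.497), 6 each for Dvl3 (0.110), Btrc (0.125), Celsr1 (0.129) and Wif1 (0.757), and 14 of 24 for Rspo4 (0.243). Cd44, Lrp5 and Rspo1 were not called without B6 BMS493 replicates 2 and 3, nor Cd44 in the 8 treated libraries alone, nor Rspo1 without B6 BMS493 replicate 2 or A/J BMS493 replicate 1 (adjusted p up to 0.0783, 0.181 and 0.221). Without B6 BMS493 replicates 2 and 3 the count fell to 5 of 76, where 11.4% of all genes were called, and in the 8 treated libraries alone to 6, where 14.3% were. It was 9 without B6 BMS493 replicate 2 (14.6% of all genes), and 5, 7 and 9 without A/J BMS493 replicates 1, 3 and 4 (15.5%, 15.3% and 15.1%).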

How the data were processed

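Poly(A)-selected RNA of fetal lungs was sequenced, per the labels' protocols. The authors deposited raw counts per gene for each of 16 libraries, 1 column without strand and 1 for each strand; the submitters' processing notes name FastQC, cutadapt, STAR and build GRCm39, without versions or annotation. The first strand column held 51.0% to 52.0% of stranded counts, so the column without strand was used; lines that name no gene (23.1% to 28.3% of fragments) were left out. Assigned counts are given in the report, and counting error is only part of the spread between libraries (chi-square per degree of freedom of 3.51 to 30.7 over 24 replicate pairs).

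Symbols, exon lengths and overlaps came from GENCODE M21 (51884 of 57180 IDs matched, with 98.9% of counts). As M21 is on another build than the counts, only promoter coordinates are given. Promoters came from RefSeq on build GRCm38.p6, which is also not the build of the counts. In R 4.3.3, edgeR 4.0.16 filtered genes (filterByExpr), scaled libraries (TMM) and fitted a robust quasi-likelihood model with 1 coefficient per group to all 16 libraries (12 residual degrees of freedom), with two-sided p-values and Benjamini-Hochberg adjustment over 17276 genes. CPM used the TMM scaling, and log2 CPM a prior count of 2. Tables were assembled in Python 3.11.15 (pandas 2.3.3). The fit was run on simulated counts drawn independently for each library, with equal changes in both strains. They held no shared dams, no outlying libraries and no interaction, so they cannot speak to these.

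Members and lists were chosen with earlier results of these data known. All members are named. Of the pathway genes, up to 10 called genes with the smallest adjusted p per contrast are named, with every called gene of a list that holds 5 or fewer calls. Alternatives were RLE scaling, DESeq2 1.42.0, no filter, a CPM minimum (mean of 1 or more), a fit to the 8 libraries of a comparison, a replicate block, the library set, a stranded column and leaving out each library; summed stranded columns and leaving out B6 BMS493 replicates 2 and 3 together were chosen after seeing the data. Marker lists were summed per library; those not described in the report ranged over the 16 libraries from 1056 to 3459 CPM for blood, 86.1 to 177 for cartilage, 1.30 to 12.5 for liver, 1.36 to 3.54 for oesophagus and skin and 0.170 to 2.23 for skeletal muscle.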

Additional observations from a re-analysis of the deposited data

Results flagged for a closer look

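Among 60 groups of 4 libraries (15 genes, the members and the 5 pathway genes called over both strains), 4 had 1 library whose distance to its nearest neighbour made up an unusual share of the group's whole range; chance marks about 1 in 20 such groups. Wnt2 in B6 controls was marked at a share of 0.863, replicate 2 lying at 89.7 CPM below the 92.1 to 92.5 CPM of the others. Nkd1 in treated A/J lungs was marked at 0.952, with replicate 2 at 65.6 CPM below 75.7 to 76.2 CPM. Bambi was marked in treated B6 lungs at 0.868, with replicate 3 at 67.0 CPM above 53.1 to 55.0 CPM, and in A/J controls at 0.845, with replicate 2 at 71.6 CPM below 74.3 to 74.8 CPM.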

How the results depend on the processing

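Over the members, 16 results were called and 44 were not. Of the called ones, 156 of 159 values under other settings and 238 of 256 with 1 library left out kept direction and call; none changed sign, and the 21 lost calls (all of Sfrp1 or Dact1) are given in the report, except that Sfrp1 in A/J was also lost without the filter (adjusted p = 0.0848) and with the library set as a term (0.0650). Counts of called members moved as follows. For BMS493 in B6 it was 2 without the filter and 1 to 2 with a library left out (2, with Lef1, without B6 BMS493 replicate 1). In A/J it was 1 with the library set, 3 (with Lef1) in the A/J libraries alone and without B6 BMS493 replicates 2 and 3, 2 without the filter (Dact1 and, in place of Sfrp1, Lef1), and 0 to 2 with a library left out (0 without A/J BMS493 replicate 2). For the average of both strains it was 2 with DESeq2, with the replicate block, with a stranded column, with summed stranded columns and without B6 BMS493 replicates 2 and 3, 3 without the filter, and 1 to 3 with a library left out (3 without B6 BMS493 replicate 1). For the interaction it was 1 without the filter and 0 with each library left out. Strain counts, which were 5 in controls and 7 with BMS493, ranged over 5 to 7 and 6 to 9 with a library left out. In controls the count was 6 with DESeq2, the replicate block and a stranded column (adding Sfrp1), 6 without the filter (adding Wnt2), and 7 in the 8 control libraries and without B6 BMS493 replicates 2 and 3 (adding both); with BMS493 it was 8 without the filter (adding Wnt7b) and 6 in the 8 treated libraries (without Dact1). Pathway counts moved to 2 without the filter (0.743% of all genes called) and to 0 in the 8 libraries alone, the block and the stranded column (0.167%, 0.411% and 0.286%) for B6, and to 8 with DESeq2 (2.30%) and 9 without the filter (1.39%) for the average. Over all settings the share of all genes called also moved, over 0.153% to 1.14% in B6, 0.295% to 1.01% in A/J, 0.936% to 2.30% on average, 0.00528% to 0.0343% for the interaction, 9.22% to 22.6% between controls and 10.6% to 22.1% with BMS493. Within libraries numbered 1 to 8 and 9 to 16 in the labels (2 per group, no test), differences in mean log2 CPM with BMS493 were -1.31 and -1.28 for Sfrp1 in B6, -0.90 and -0.81 for Sfrp1 in A/J, and -0.70 and -0.34 for Dact1 in A/J.

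No pairing of libraries by replicate number was seen across groups: the correlation of deviations of same-numbered libraries was -0.147 to 0.148, over 0.1 in 3 of 24 pairs. This check compares different groups, so it cannot tell whether fetuses of the same group shared a dam. With the replicate number as a block the count for the average of both strains rose from 1 to 2, adding Lef1 (-0.35, edgeR adjusted p = 0.0427), and that for control strains from 5 to 6, adding Sfrp1 (0.48, adjusted p = 0.0485).

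Sign changes were confined, in the settings run, to results without a call. Without B6 BMS493 replicates 2 and 3, Wnt2 became 0.085 and Wnt5a -0.070 for BMS493 in B6, Wnt5a -0.048 on average, the interactions of Wnt5a, Wnt7b and Lef1 0.044, -0.13 and -0.28, and the strain difference with BMS493 of Wnt2 -0.081 and of Axin2 -0.0013. With a stranded column Axin2 became -0.0044 and Dact1 -0.035 in B6, and Dact1 -0.014 with summed columns. The Lef1 interaction became -0.00069 with RLE and -0.0012 with the CPM minimum, and Axin2 between control strains 0.00069 with RLE and DESeq2 and 0.00018 with the CPM minimum.
With a library left out, ranges that crossed 0 were -0.23 to 0.039 (Wnt2), -0.0050 to 0.23 (Wnt5a) and -0.035 to 0.081 (Axin2) in B6; -0.087 to 0.038 (Wnt5a), -0.20 to 0.0069 (Wnt11) and -0.017 to 0.11 (Nkd1) in A/J; -0.016 to 0.10 (Wnt5a) on average; -0.24 to 0.033 (Wnt2), -0.027 to 0.13 (Wnt7b), -0.086 to 0.18 (Wnt11), -0.0030 to 0.13 (Axin2) and -0.12 to 0.22 (Lef1) for the interaction; -0.038 to 0.053 (Axin2) and -0.069 to 0.054 (Nkd1) between controls; and -0.030 to 0.24 (Wnt2) and -0.0021 to 0.12 (Axin2) with BMS493. The cause of these changes was not tested.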
